A study of Drosophila melanogaster with 4 samples.

Results

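Alternative 3′ splice sites are introns whose upstream exon can be joined to either of 2 acceptor sites, so that the downstream exon starts early or late. The events described here are all those with 2 isoforms that were listed in every pairwise comparison of an Smn mutant and a wild type Drosophila melanogaster library: 356 of 29166 such events of 5 splicing types, and 356 of the 384 alternative 3′ splice sites listed in any comparison. For each event the distance is the gap between the 2 acceptors. The study sequenced polyadenylated RNA of whole larvae as read pairs and asked how far the loss of Smn, a protein needed to assemble the small nuclear RNPs of the spliceosome, changes splicing.

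The 4 libraries came from 2 groups. The 2 Smn mutant libraries were made from SmnX7/D larvae, which carry the alleles X7 and D of Smn, and the 2 wild type libraries from the strain Oregon R. Larvae of both groups were grown at 24 ± 1 °C on molasses and agar and taken 74 ± 2 hours after egg laying. The groups were matched by age in hours, and a difference in developmental stage cannot be told apart from the genotype. The labels do not say how many larvae entered a library or whether the replicates were separate cultures, so p-values measure the spread between these libraries only. No event of Smn itself is among the 285 of the 356 events that could be matched to a gene. The level of Smn was not analysed here. Because whole animals were sequenced, a shift in isoform use within cells and a shift in which cells supplied the RNA cannot be told apart.

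An acceptor is the end of an intron, nearly always the bases AG, and is read by the spliceosome together with the pyrimidine-rich stretch and the branch point before it. U2AF binds the stretch and the AG in the first step of splicing, and the AG is chosen for the cut in the second step, when pairs of AG only a few bases apart can compete. Using the proximal acceptor, the one closer to the upstream exon, adds the bases between the 2 sites to the mRNA as an extension. In coding sequence an extension of a multiple of 3 bases adds amino acids and leaves the reading frame as it was.

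The closest common pairs were tandem acceptors 3 bases apart, in which the proximal cut follows the first 3 of the capital letters and the distal cut follows all 6. They are shown here because almost the same 6 letters went with opposite choices in different genes. The sequences were read on the transcribed strand from the RefSeq copy of the dm6 genome after matching each event to an annotated intron by its lengths, and positions are those of the deposited events in dm3. The first is at chrX:1754654-1754657 on the minus strand in deltaCOP, a subunit of the COPI vesicle coat, and was spliced to both sites. CG13124 at chr2L:9907544-9907547 (minus strand) used both sites, ArfGAP3 at chr3L:22709302-22709305 (minus strand) almost only the distal one, and Pss, the phosphatidylserine synthase, at chr3L:20516381-20516384 (minus strand) almost only the proximal one.
deltaCOP: cattgctctgatttcatCAGCAGtaaa
CG13124: tcgccctctcgctcgcaCAGCAGccac
ArfGAP3: tcacacttatattgtttCAGCAGgatc
Pss: tgtgcaattgaatatttCAGCAGcgac
Other letters are shown for gw (GW182, a protein of microRNA silencing; chr4:678307-678310, minus strand), with GAG at the distal cut, and for yps (a Y-box RNA-binding protein; chr3L:12115873-12115876, minus strand), with no AG at the proximal cut.
gw: tatttctgctgttatttAAGGAGgtaa
yps: ttattaatattattctgTTGCAGttca

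For pairs further apart, the 2 windows of each pair are printed for 4 genes described in detail, CG43367 and Arf1 for their wide shifts and CycG and Pxn for their small p. Each window holds the last 24 bases before the cut and 6 after it, with the AG of the acceptor in capitals. Both cuts of each pair follow an AG. CG43367 lies at chr3L:4215099-4216584 on the plus strand, Arf1 at chr3L:22863165-22863250 on the minus strand, CycG at chr3R:27427945-27428795 on the minus strand and Pxn at chr3L:2629526-2629596 on the minus strand.
CG43367 proximal: gcattcactttcgatccgaacaAGgcaaaa
CG43367 distal: cttaaaacttggtgttctttttAGggaagt
Arf1 proximal: tgtctatttttggactcttcacAGattctc
Arf1 distal: gatttgaacttgtcataattccAGccagca
CycG proximal: gccccacacaaacaacttttgcAGctcgta
CycG distal: cttgaaaaccacaacaggtactAGgccagc
Pxn proximal: gttactagccctttaaatccatAGgttatt
Pxn distal: tctcttggaattctctttgtgcAGctgcct

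The authors' splicing tool, MISO, gave for each event and library the fraction of transcripts that use the proximal acceptor (the long form) as a posterior mean with an interval, and the number of read pairs that fit only the long form, only the short form, both or neither. Read pairs at these events numbered 833939 and 673490 in the Smn mutant libraries, against 382515 and 355779 in the wild type libraries. Pairs specific to the short form numbered 26137 and 25346 in the mutants and 19365 and 16782 in the wild type. Pairs specific to the long form numbered 437902 and 306213 in the mutants and 68480 and 73258 in the wild type. CG34347 alone held 369085 and 240205 of these in the mutants and 17904 and 30260 in the wild type; its extension is 28612 bases long. An event had a median of 32 and 36 isoform-specific pairs in the mutants and of 25.5 and 20 in the wild type, so most single events were measured with few pairs. The fractions of the 2 mutant libraries correlated across the 356 events with Pearson's r = 0.969 and those of the 2 wild type libraries with r = 0.944, given as a description over events that share libraries. The mutants lay closer to each other than the wild types did: over the 36 events with a mean of at least 10 pairs of each isoform, the root mean square difference of the log2 ratio of long-form to short-form pairs was 0.578 between the mutants and 1.48 between the wild types. Between a mutant and a wild type library it was 1.07 to 1.39, so the 2 wild types differed from each other by more than either did from a mutant, and r between groups ran from 0.944 to 0.959.

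The commonest distance was 3 bases. Distances spanned 1 to 96078 bases with a median of 29.5 bases, and 43 of the 356 pairs (12.1%) were exactly 3 bases apart. Among the 3120 alternative 5′ splice sites of the same libraries, 53 (1.7%) were 3 bases apart, while 238 (7.63%) were 4 bases apart against 13 (3.65%) of the alternative 3′ sites. Of the other alternative 3′ sites, 62 were 4 to 12 bases apart, 98 were 13 to 50, 47 were 51 to 200 and 102 were more than 200 bases apart, with 4 at 1 or 2 bases. At the far end was bru1, the RNA-binding protein Bruno, at chr2L:12175513-12271591, whose fraction of the long form was 0.05 and 0.05 in the mutants and 0.04 and 0.02 in the wild type.

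**Figure D1:**
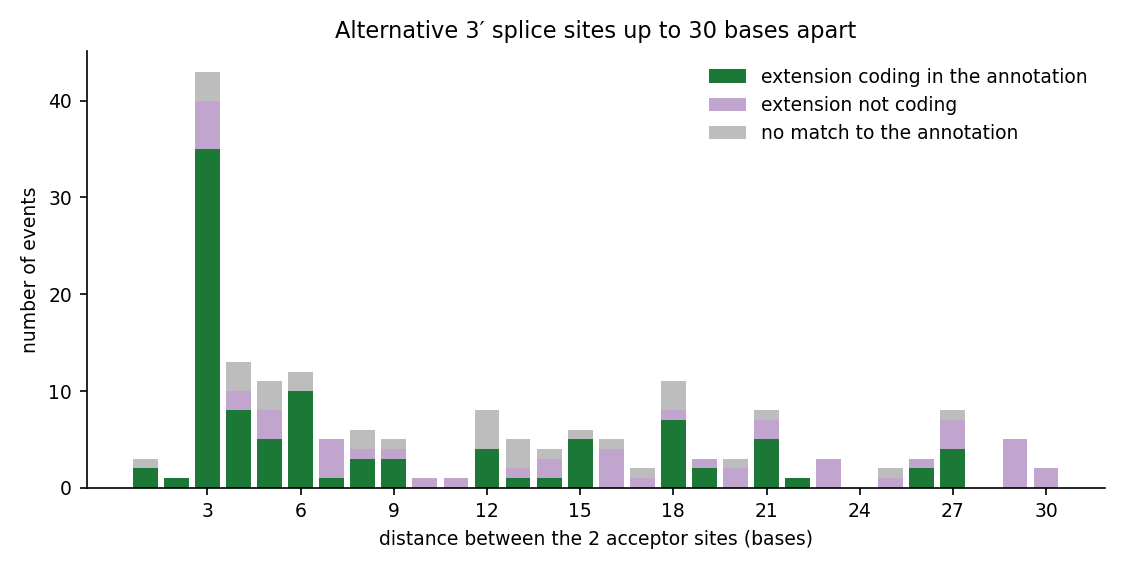
Number of alternative 3′ splice site events (y axis) by the distance between their acceptors in bases (x axis, 1 to 30 bases), coloured by whether the extension is annotated as coding. The bar at 3 bases holds 43 events, of which 35 have a coding extension, and stands far above every neighbour.

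Coding extensions kept the reading frame far more often than the rest. Of the 356 events, 285 (80.1%) were matched to an annotated intron, 117 of them with both acceptors annotated, 87 with only the proximal and 81 with only the distal one. The distance was a multiple of 3 in 94 of 124 events whose extension is annotated as coding (75.8%), against 49 of 161 whose extension is not (30.4%). The same held with the 3 base pairs and distant pairs left out: at 4 to 50 bases the share was 63.8% of 69 coding extensions and 24.1% of 54 others. By frame, the fractions of the groups did not overlap in 35.1% of the 174 events at a multiple of 3 and in 35.7% of the 182 others.

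Acceptor letters differed between the 2 ends of a pair. Of 277 matched events with AG at both cuts, the proximal site read CAG in 154, TAG in 81, AAG in 40 and GAG in 2, and the distal site read CAG in 194, TAG in 51, AAG in 26 and GAG in 6. The median fraction of the long form was 0.148 in the mutants and 0.13 in the wild type for the 40 events with AAG at the proximal site. It was 0.853 in the mutants and 0.835 in the wild type for the 26 events with AAG at the distal site. In the median, the site with A before its AG was the less used one at either end of the pair, in both groups. The 6 events with a distal GAG stayed at 0.84 or above in the mutants and at 0.79 or above in the wild type. The search was for these 3 letters at the annotated cuts only, on the transcribed strand.

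In 8 events one cut was not preceded by AG. For yps, all 755 isoform-specific pairs of the 4 libraries fitted the distal CAG and none the TTG 3 bases before it, which allows a share of the long form of up to 0.00397 (3 counts of 755, counting error only). RpL39, a ribosomal protein, and Yp3, a yolk protein, are pairs 1 base apart in which only the proximal cut follows an AG. RpL39 had a fraction of 1.00 in all 4 libraries. Yp3 had 0.88 and 0.88 in the mutants and 0.98 and 0.99 in the wild type, but no short-form pair in any library and only 7 and 8 long-form pairs in the mutants, against 78 and 103 in the wild type. The groups thus differed in depth as well as in fraction, and the part of depth was not tested.

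The library medians of the long-form fraction were slightly higher in the mutants, though not in every distance class. With 2 libraries a group the difference cannot pass a threshold. The median fraction of the long form was 0.495 and 0.49 in the mutants and 0.43 and 0.445 in the wild type. Both mutant medians were the higher ones, by 0.055 on average, with an exact permutation p of 0.333 (two-sided), the smallest that 2 libraries against 2 allow. The median of the differences within events was only 0.005. By distance the medians were 0.61 and 0.72 in the mutants and 0.60 and 0.57 in the wild type at 3 bases. They were 0.885 and 0.89 in the mutants and 0.88 and 0.87 in the wild type at 4 to 12 bases. At 13 to 50 bases, with 98 events, they were 0.345 and 0.42 in the mutants and 0.41 and 0.39 in the wild type, a mutant minus wild type difference of −0.0175 between the means. At 51 to 200 bases they were 0.46 and 0.37 in the mutants and 0.45 and 0.36 in the wild type. Beyond 200 bases they were 0.125 and 0.16 in the mutants and 0.12 and 0.125 in the wild type. The 4 pairs 1 or 2 bases apart had higher medians than any other class in every library, with a difference of −0.0025 between the means. Pairs up to 12 bases apart thus used the proximal site in most transcripts at the median and pairs over 200 bases the distal one, in all 4 libraries.

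Both mutant fractions lay above both wild type fractions in 83 events (23.3%) and below them in 43 (12.1%). Over all 29166 events of the 5 types these shares were 25.9% and 13.5%. Of those events 23758 were retained introns, with 26.9% and 12.2%. Among alternative 5′ sites the shares were 21.7% and 17.6%, and among skipped exons 21% and 22.5%. Alternative 3′ sites thus lay near retained introns, while alternative 5′ sites leaned less and skipped exons did not lean to the first isoform. The share with a lower long form was 20.9% at 3 bases (9 events, with 11 higher) and 7.84% beyond 200 bases (8 events, with 26 higher). In 52 of the 126 events whose groups did not overlap, pairs of only one isoform were seen in all 4 libraries. The same held for 126 of all 356 listed events, overlapping or not. The part that the number of pairs had in the fractions of the 52 events was not tested. Among the 36 events with a mean of at least 10 pairs of each isoform, 12 were higher in both mutants and 2 lower, and the log2 ratio was higher on average in 24. The shares over all 5 types at this depth are not given here, so whether this lean is particular to alternative 3′ sites cannot be said.

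**Figure D2:**
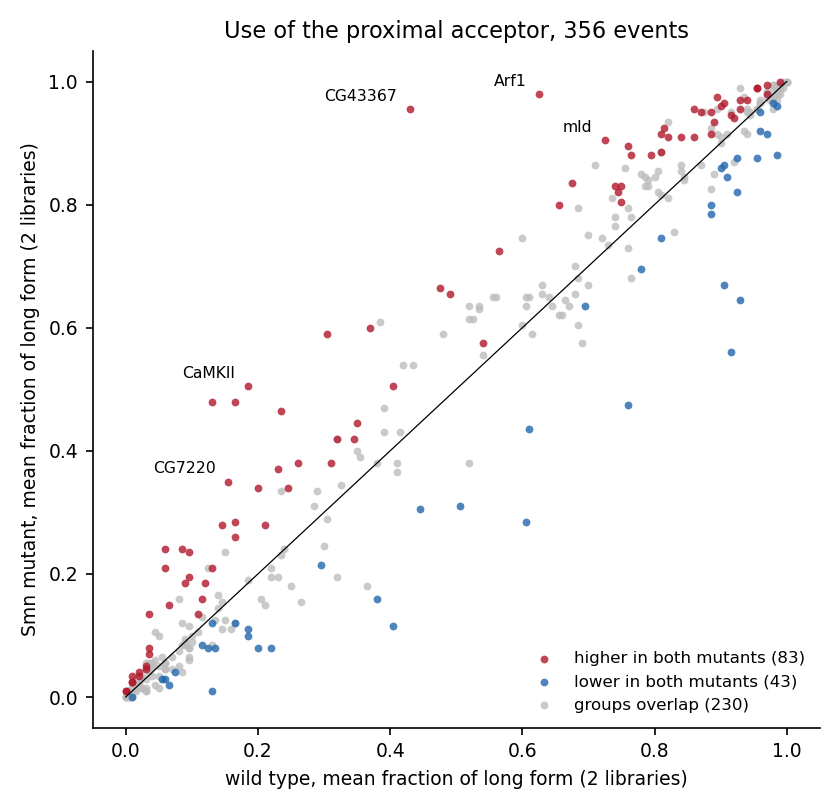
Mean fraction of the long form in the 2 Smn mutant libraries (y axis) against that in the 2 wild type libraries (x axis) for all 356 events, coloured by whether the groups overlap, with the line of equal use. Most points hug the line; CG43367 and Arf1 lie far above it, with means of 0.955 and 0.98 in the mutants against 0.43 and 0.625 in the wild type.

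No event passed the adjusted threshold in the fit to the log2 ratio, while 3 other settings called 1 to 5. The log2 ratio of long-form to short-form pairs was tested with limma in the 158 events with at least 20 isoform-specific pairs in every library. None had an adjusted p under 0.05 (0%; the smallest was 0.129) and 18 had an unadjusted p under 0.05 (11.4%), 16 of them with more long form in the mutants (10.1%) and 2 with less (1.27%). Among alternative 5′ sites 0 of 1579 passed and 283 were under the unadjusted threshold (17.9%). Over all 5 types 15 of 14200 passed (0.106%), all retained introns. Under the unadjusted threshold were 20.8% over all 5 types, 17.4% with the first isoform higher in the mutants and 3.32% with it lower. Most of these tested events, 11481 of 14200, were retained introns, with 19% higher and 2.91% lower. Of alternative 5′ sites 13.7% were higher and 4.24% lower, and of skipped exons 6.6% and 6.5%. A lean to the first isoform was thus also seen in retained introns and alternative 5′ sites, but not in skipped exons. Of the 158, 29 had no short-form pair and 4 no long-form pair in any library, and for these the ratio only follows depth. CG34347 is such an event: its fraction was 1.00 in every library. The median log2 ratio of the tested events was 5.55 and 4.90 in the mutants and 4.97 and 4.74 in the wild type, groups that overlap (difference 0.37, exact permutation p = 0.667, two-sided). The sign of this difference turned when the minimum was 50 pairs (−0.0975) or when every library was thinned to equal pairs (−0.129), as did that of the difference from alternative 5′ sites (0.341 as fitted, exact permutation p = 0.667), which was −0.00604 without wild type replicate 2. The unadjusted count was 11 without Smn mutant replicate 1, 28 without wild type replicate 1 and 29 without wild type replicate 2.

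A stricter reading of the authors' own intervals left 7 events, all with more long form in the mutants. In these the intervals of both mutant libraries lay wholly above those of both wild type libraries (1.97%), and in 0 events wholly below (0%). The shares over all 5 types were 2.19% and 0.48%. The interval covers counting error within a library and not the difference between larvae. Among them were CG43367, Arf1, CG7220, CycG, CG32425 and kra, and all of these but Arf1 are pairs 850 to 1485 bases apart; CG32425 is named although it fell outside the rule for named events. The authors' Bayes factor, which compares 2 libraries at a time, was at least 10 with a difference of at least 0.2 in all 4 pairings for 2 events, CG43367 and Arf1 (0.562%, against 0.72% over all 5 types). With Smn mutant replicate 1 or wild type replicate 1 left out, 4 events met it, and with either other library left out, 3.

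CG43367 had the largest shift. Its fraction of the long form was 0.94 and 0.97 in the mutants and 0.44 and 0.42 in the wild type. Long-form pairs numbered 1484 and 2921 in the mutants and 71 and 18 in the wild type, while short-form pairs numbered 11 and 11 in the mutants and 9 and 4 in the wild type. Only the pairs of the extension were many times more numerous in the mutants. The log2 ratio was higher by 4.94 (SE 0.532), with an adjusted p of 0.129 by limma. The 1485 base extension holds an exon of Cpr64Ad, a cuticle protein gene on the same strand, so pairs of Cpr64Ad mRNA fit the long form and cannot be told apart from it. When the fit was held to the 64 events with at least 1 pair of each isoform in every library, CG43367 was the 1 event that passed (log2 difference 4.92, SE 0.620, adjusted p = 0.00327 by limma). With pairs thinned to equal depth the difference was 1.86 (adjusted p = 0.673 by limma), and over all settings the adjusted p ran from 0.00327 to 0.673. Both settings were chosen after seeing the data.

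Arf1 encodes a small GTPase of Golgi vesicle traffic. Its fraction was 0.97 and 0.99 in the mutants and 0.59 and 0.66 in the wild type. No short-form pair was seen in any library, and the upstream exon of the event is 1 base long. Long-form pairs numbered 933 and 946 in the mutants and 758 and 385 in the wild type, and pairs that fit both forms 753 and 687 in the mutants and 1085 and 498 in the wild type. The fraction therefore rests on the number of extension pairs for each shared pair, and not on the cut itself. In the authors' deposited table of exon usage, 4 of 14 tested bins of Arf1 were called. The share of called bins over the whole table is not given here, so this count has no background.

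CycG encodes cyclin G. Its fraction was 0.24 and 0.18 in the mutants and 0.08 and 0.04 in the wild type. Long-form pairs were 907 and 777 in the mutants and 244 and 65 in the wild type, and short-form pairs 154 and 231 in the mutants and 124 and 58 in the wild type. Both forms gave more pairs in the mutants, the long form more so, by 1.56 on the log2 scale (SE 0.455, adjusted p = 0.358 by limma). In the authors' deposited exon usage values, 5 of 10 tested bins of CycG were called. Among other named genes, 0 of 13 bins were called for Pxn, 1 of 10 for CG7220 and 1 of 17 for kra. Over the whole deposited set, 9.8% of 9585 genes held a called bin, which is a share of genes and not of bins. The counts of called bins within a gene do not say whether a called bin lies in the extension.

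CG7220 had fractions of 0.34 and 0.36 in the mutants and 0.17 and 0.14 in the wild type, with an acceptor distance of 890 bases. CG32425 had 0.20 and 0.19 in the mutants and 0.09 and 0.10 in the wild type, at 1051 bases. Its long-form pairs were 192 and 173 in the mutants and 135 and 32 in the wild type. Its short-form pairs were 16 and 13 in the mutants and 2 and 10 in the wild type. The ratio of long-form to short-form pairs was highest in wild type replicate 1 and lowest in wild type replicate 2. These pairs thus did not set the groups apart. The shift of kra was small, with 0.03 and 0.04 in the mutants and 0.02 and 0.02 in the wild type. In all 3 the mutant fractions lay above the wild type ones. For CG7220 the log2 ratio was higher by 1.54 (SE 0.260, adjusted p = 0.206 by limma).

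Pxn encodes peroxidasin, an enzyme of the extracellular matrix. Its acceptors are 70 bases apart and its fraction was 0.26 and 0.22 in the mutants and 0.05 and 0.07 in the wild type. Long-form pairs were 12 and 13 in the mutants and 3 and 3 in the wild type, short-form pairs 10 and 18 in the mutants and 36 and 23 in the wild type. The ratio was higher by 2.95 on the log2 scale (SE 0.445, adjusted p = 0.206 by limma). The groups are apart, but the wild type values rest on 3 long-form pairs each. Retention of the intron that ends at the proximal acceptor was also higher, 0.13 and 0.17 in the mutants and 0.01 and 0.05 in the wild type.

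**Figure D3:**
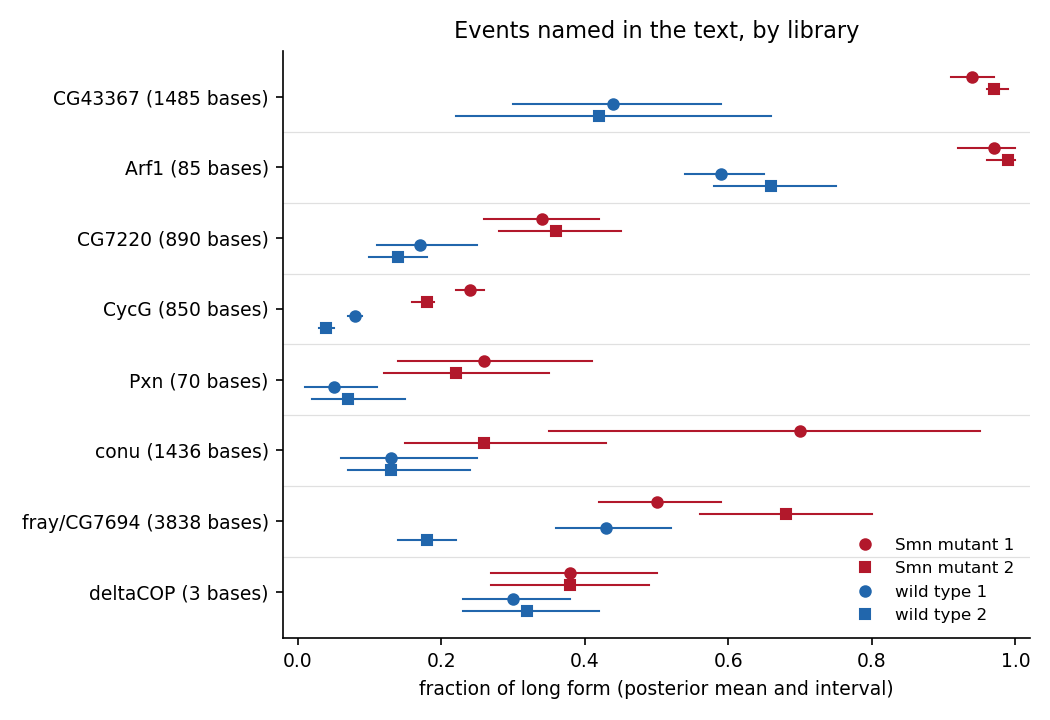
Fraction of the long form (x axis) with the authors' interval for 8 of the events named in the text, 1 point per library, Smn mutants in red above wild type in blue. The intervals are apart for the first 4 events and overlap for the lower ones; conu spreads from 0.26 to 0.70 between the mutants, and fray/CG7694 from 0.18 to 0.43 between the wild types.

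Some wide differences came with a wide spread inside a group. At conu the fraction was 0.70 and 0.26 in the mutants and 0.13 and 0.13 in the wild type, and the mutant libraries differed more from each other than the second of them did from the wild type. At fray/CG7694, which includes the kinase Frayed, it was 0.50 and 0.68 in the mutants and 0.43 and 0.18 in the wild type. CG34417 had a smaller difference, 0.52 and 0.49 in the mutants and 0.38 and 0.43 in the wild type, with a single short-form pair among its 4 libraries. None of the 3 had an adjusted p under 0.05 by limma.

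Both mutants differed from both wild types by a mean of at least 0.1 in 48 events (13.5%, against 14.8% over all 5 types), with more long form in 32 and less in 16. The widest of the 16 was a pair 16 bases apart at chr4:87532-87548 with no gene match, at 0.70 and 0.42 in the mutants and 0.92 and 0.91 in the wild type. It had 51 and 29 long-form pairs in the mutants and 47 and 60 in the wild type, and no short-form pair anywhere, so the cut at the distal site was not observed. pyd3, an enzyme of pyrimidine breakdown, had the smallest p among tested events with less long form: its log2 ratio differed by −2.36 (SE 0.493, adjusted p = 0.206 by limma), from 1 and 0 long-form pairs in the mutants and 2 and 2 in the wild type, and its fraction was 0.01 or less in every library.

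Among the other events of small p, coro, an actin-binding coronin, had 7 and 4 long-form pairs in the mutants and 1 and 1 in the wild type, beside 107 and 77 short-form pairs in the mutants and 137 and 73 in the wild type. Its fraction was 0.01 or less in all 4 libraries. An unmatched pair 15 bases apart at chr2R:19946719-19946734 was at 1.00 and 1.00 in the mutants and 0.99 and 0.99 in the wild type, with 5 and 5 short-form pairs in the mutants and 15 and 16 in the wild type beside 3184 and 2835 long-form pairs in the mutants and 4112 and 4520 in the wild type. An unmatched pair 1 base apart at chr4:87363-87364 was at 1.00 throughout, with 1 short-form pair among its 4 libraries. In these the minor acceptor was counted in a handful of pairs, and the groups differed by 0.01 or less in the fraction.

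A pair of events at chr2L:8088665-8105692 and chr2L:8089357-8105692 shares its distal acceptor and an upstream exon of 6 bases. The fraction of the first was 0.49 and 0.47 in the mutants and 0.18 and 0.15 in the wild type, and that of the second 0.51 and 0.42 in the mutants and 0.32 and 0.15 in the wild type. No short-form pair was seen in either, and their intervals overlapped between the groups. The 2 are overlapping readings of one region and not separate observations.

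The 43 pairs 3 bases apart covered the whole range of use. In 16 of them at least 80 isoform-specific pairs were seen over the 4 libraries, and among these 8 were at 0.9 or above and 3 at 0.1 or below in the mutants, against 6 and 4 in the wild type. deltaCOP had 0.38 and 0.38 in the mutants and 0.30 and 0.32 in the wild type, from 26 and 26 long-form and 39 and 40 short-form pairs in the mutants and 49 and 31 long-form and 107 and 65 short-form pairs in the wild type. The mutants were the higher in both libraries, by 0.49 on the log2 scale (SE 0.217, adjusted p = 0.40 by limma). CG13124 had 0.60 and 0.48 in the mutants and 0.50 and 0.37 in the wild type, and the groups overlapped. asrij had 0.31 and 0.36 in the mutants and 0.31 and 0.16 in the wild type, and nemy 0.97 and 0.94 in the mutants and 0.98 and 0.93 in the wild type, both overlapping.

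The 6 letters at the cuts did not fix the choice. The letters CAGCAG were read in 18 of the 3 base pairs, whose mean fraction ran from 0.055 to 0.975 in the mutants and from 0.06 to 0.96 in the wild type. ArfGAP3, printed above, had 0.06 and 0.05 in the mutants and 0.03 and 0.09 in the wild type, with no long-form pair among 23 and 19 pairs in the mutants and 39 and 12 in the wild type. Pss, with the same letters, had 0.97 and 0.98 in the mutants and 0.92 and 0.87 in the wild type, with no short-form pair among 42 and 66 in the mutants and 15 and 8 in the wild type. The order of ArfGAP3 and Pss was the same in all 4 libraries. gw, with AAGGAG, had 0.99 and 0.97 in the mutants and 0.99 and 0.98 in the wild type.

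Differences at 3 base pairs were small where the depth was good. The largest between group means was 0.105 among the 16 deep pairs and 0.22 among all 43. The 2 pairs of CycA, cyclin A, were both lower in the mutants, at 0.91 and 0.92 in the mutants and 0.97 and 0.97 in the wild type for one and 0.92 and 0.92 in the mutants and 0.94 and 0.98 in the wild type for the other, but no short-form pair was seen in any library. The zinc finger gene mld was at 0.91 and 0.90 in the mutants and 0.74 and 0.71 in the wild type, with 12 and 15 long-form pairs in the mutants and 3 and 3 in the wild type. Eip63F-1, a calcium-binding protein induced by ecdysone, was at 0.10 and 0.06 in the mutants and 0.19 and 0.25 in the wild type. It was the one of these with pairs on both sides, 0 and 0 long-form pairs in the mutants and 2 and 5 in the wild type, beside 9 and 24 short-form pairs in the mutants and 13 and 16 in the wild type. CycA, mld and Eip63F-1 were chosen after their values were seen.

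**Figure D4:**
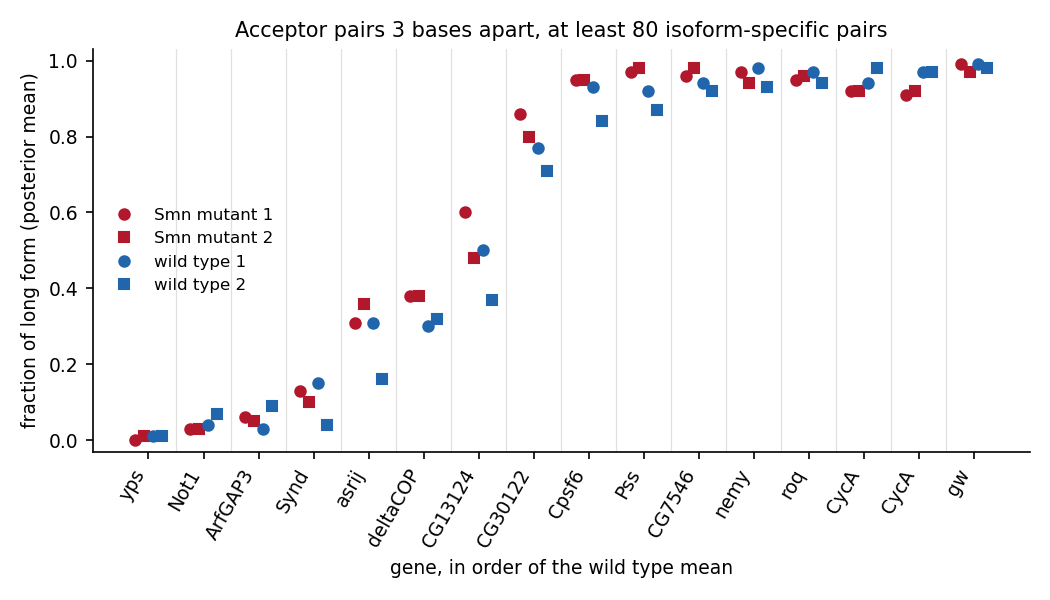
Fraction of the long form (y axis) in each library for the 16 acceptor pairs 3 bases apart with at least 80 isoform-specific pairs, in order of the wild type mean, Smn mutants in red left of wild type in blue. The pairs run from yps at 0.01 or below to gw at 0.97 or above, and the 4 libraries of a pair lie close together at both ends.

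From a list of 34 gene names for SR proteins and hnRNPs, some of them synonyms, 6 genes had a matched event. Of these 8 events 6 were tested. None passed the adjusted threshold by limma, and 1 was under the unadjusted one, beside 11.4% of all 158 tested events. Both mutants were higher in 2 of the 8 and lower in 1, beside 23.3% higher and 12.1% lower over all 356 events. So few events cannot be set apart from these shares. The median difference was −0.0025 against 0.005 over all 356 events. The lower one was Hrb98DE, an hnRNP A1 relative, at chr3R:24426440-24428494, with 0.81 and 0.79 in the mutants and 0.89 and 0.88 in the wild type. No short-form pair was seen there in any library, so the cut at the distal site was not observed. Long-form pairs numbered 403 and 537 in the mutants and 368 and 237 in the wild type. Its extension also overlaps snoRNA genes on the same strand. Rox8 and B52, with coding extensions of 18 and 15 bases, had 0.25 and 0.23 in the mutants against 0.24 and 0.24 in the wild type, and 0.08 and 0.08 in the mutants against 0.14 and 0.05 in the wild type. Among the 285 events matched to a gene, none was of 15 genes of 3′ splice site recognition or 16 genes of the Smn complex and Sm proteins. None was of 8 genes of sex determination, tra among them. The 71 unmatched events carry no gene name and could not be searched.

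From a list of 30 muscle sarcomere gene names, some of them synonyms, 4 genes had a matched event. The 1 tested was up, troponin T, with a fraction of 0.00 in all 4 libraries and a pair of acceptors 1428 bases apart. Its long-form pairs were 182 and 89 in the mutants and 95 and 11 in the wild type, beside 2048 and 1069 short-form pairs in the mutants and 605 and 91 in the wild type. The log2 ratio differed by −0.73 (SE 0.238, adjusted p = 0.373 by limma), while the fraction rounded to the same value in every library. In bt, a titin-like muscle protein, a pair 9 bases apart had 0.99 and 0.99 in the mutants and 0.99 and 0.87 in the wild type, the last from 6 long-form pairs.

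Retention of the same introns was read from the authors' retained intron events with the same dm3 coordinates. The intron of the short form holds the extension, so reads in the extension count both as the long form of the alternative 3′ site and as retention. Retention of that intron was higher in both mutants for 42 of the 65 events whose long form was higher in both mutants (64.6%), for 8 of the 35 whose long form was lower (22.9%) and for 44 of the 188 whose groups overlapped (23.4%). The intron of the long form ends at the proximal acceptor and shares no such reads. There the shares were 19 of 58 (32.8%), 8 of 28 (28.6%) and 36 of 143 (25.2%), beside 26.9% of all 23758 retained introns. At CycG, for example, retention of the short-form intron was 0.14 and 0.11 in the mutants and 0.05 and 0.04 in the wild type.

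**Figure D5:**
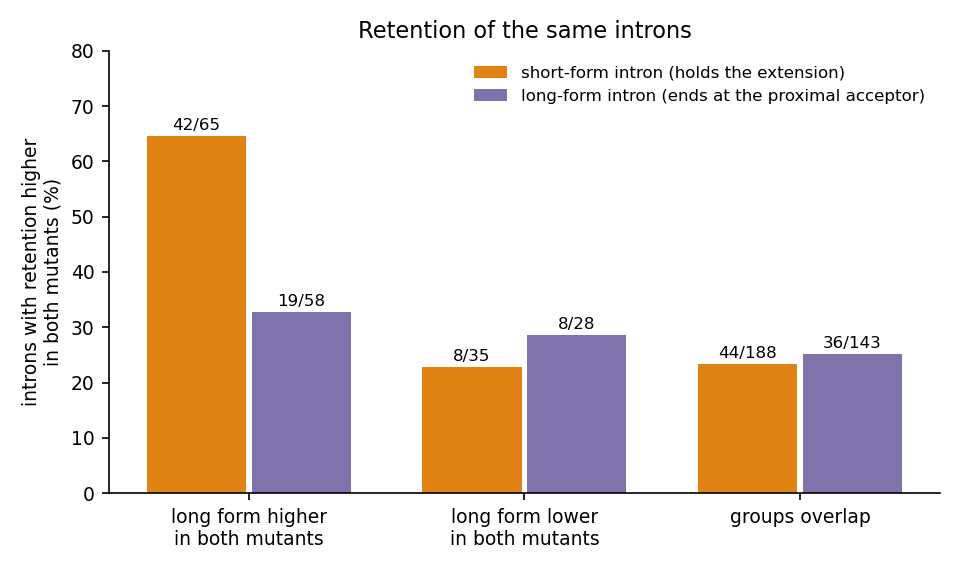
Share of introns whose retention was higher in both Smn mutant libraries (y axis, percent) for events grouped by the direction of their long form, with counts above the bars. Only the intron that holds the extension stands out, at 42 of 65 where the long form was higher; those values share reads.

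Genes with an alternative 3′ site more often held called bins in the authors' deposited table of exon usage, 46 of 226 tested genes (20.4%), against 939 of 9585 genes in the whole table (9.8%). These genes have more bins, a median of 9 against 4. Where the groups of the alternative 3′ site did not overlap, 16 of 76 genes (21.1%) had a called bin, a share near the 20.4% of all genes with such sites.

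Distant extensions more often ran into other genes. An exon of another gene overlapped the extension in 14 of 83 matched events over 200 bases apart (16.9%) and in 5 of 166 up to 50 bases apart (3.01%). In such events, Cpr64Ad within CG43367 being one, pairs from the other gene can be counted as the long form. Annotated transposable elements lay in the extension of 12 of the 83, and in none of the 202 at shorter distances; the mutants were both higher in 4 of the 12 and both lower in 0, beside 25.5% higher and 7.84% lower among all events over 200 bases apart. In CG34347, 5144 of the 28612 bases are a copia retrotransposon in the reference genome, and the pairs counted as its long form were 369085 and 240205 in the mutants and 17904 and 30260 in the wild type. At chinmo, a zinc finger gene, 7408 of 11248 bases are the element blood, with 3107 and 2712 long-form pairs in the mutants and 1543 and 344 in the wild type, and fractions of 0.78 and 0.62 in the mutants and 0.91 and 0.45 in the wild type that overlap. Whether the 2 strains carry these insertions was not analysed here. Shared sequence of this kind bears on the class that held 26 of the 83 events with more long form in the mutants, and its part in those results was not tested.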

How the data were processed

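The authors aligned the reads to dm3 with TopHat 2.0.8 and Bowtie2 2.1.0 and ran MISO 0.4.8 on pairs of libraries, per the deposited readme. MISO's deposited values are a fraction of the first isoform with its interval, a Bayes factor, which is a ratio, and pairs per read class; an event was listed from 20 pairs. The exon usage table holds the authors' p-value, log2 fold change and mean normalized signal per bin from DEXSeq. Deposited tables of developmental stages were not used.

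Here the log2 ratio (long-form + 0.5)/(short-form + 0.5) of specific pairs was fitted with limma 3.58.1 in R 4.3.3, weights including a replicate variance, for events with at least 20 specific pairs in every library, Benjamini-Hochberg within the type. The fit was also run on simulated data with a replicate SD of 0.5 on the log2 scale, below the 0.691 estimated from these libraries. Those runs are thus no check of the fit at the spread seen here. Library medians were compared by exact permutation (SciPy 1.17.1). Alternatives changed weights, minimum, pseudocount, measure, pooling, depth, replicate block and libraries. Whether equal replicate numbers pair libraries was checked: deviations correlated at −0.078 over 36 events, so no pairing was used.

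Events were matched to dm6 (RefSeq) by intron and exon lengths without converting coordinates, and transposable elements were taken from the Ensembl annotation of that assembly. Named were the 12 tested events of smallest p, those of the Bayes rule, the 8 tested of largest non-overlapping difference, the 6 deepest 3 base pairs and the ends of the distance range. Members, lists and rules were chosen with earlier results of these data known. Sequences on chromosome arm 2R are not shown, and 2 events that met the naming rule are not reported here. Library strandedness is not given in the sources used here.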

Additional observations from a re-analysis of the deposited data

How the results depend on the processing

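With 2 libraries a group no exact permutation test can go below 0.333, and events near 20 pairs show only wide shifts. The count of 0 events past an adjusted p of 0.05 by limma (18 unadjusted) became 4 on the logit of the fractions, 5 with pairs thinned to equal depth and 1, CG43367, with a pair of each isoform in every library. Thinned events with pairs of 1 isoform only were equal in all libraries, with an SE of 0.0161 for CG34347 against 0.702 as fitted. Among the 5 thinned calls were coro, with an SE of 0.00895 against 0.447 as fitted, and deltaCOP, with 0.0428 against 0.217. Both calls thus came with errors far below those of the main fit. Why the logit and thinning gave calls was not tested. Unadjusted counts were 6 with a mean of 10 pairs of each isoform, 35 with no minimum, 28 on the logit, 48 on the logit over all events, 11 with a pair of each isoform and 11 to 29 leaving out 1 library. Without Smn mutant replicate 1 it was 11, without wild type replicate 1 it was 28 and without wild type replicate 2 it was 29. The Bayes rule gave 5 events at a difference of 0.1 and 3 to 4 leaving out 1 library, against 2.

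The median difference of 0.369 was 0.0427 to 0.715 leaving out 1 library, −0.0975 at 50 pairs and −0.129 thinned. The difference from alternative 5′ sites, 0.341, was −0.191 at 10 pairs, −0.392 at 50, −0.450 with 10 pairs of each isoform, −0.134 thinned and −0.00604 without wild type replicate 2, with 0.715 as the highest leaving out 1 library. The cause was not tested. The replicate block gave 0 events (17 unadjusted), a median difference of 0.369 and 0.341 for the difference from alternative 5′ sites. Of 447 recomputed values of 27 single events none turned its sign, 429 kept direction and side of the threshold, 4 became significant and 14 were 0, most of them thinned events with pairs of 1 isoform only. Thinning, the limit of a pair of each isoform, the logit over all events and the mean of 10 pairs for the difference from alternative 5′ sites were chosen after seeing the data.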

Other observations

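Some events outside the rule for named events were chosen after their values were seen. CaMKII, the calcium and calmodulin-dependent kinase, on chromosome 4 with acceptors 253 bases apart, had a long-form fraction of 0.41 and 0.60 in the mutants and 0.22 and 0.15 in the wild type, from 31 and 30 long-form pairs in the mutants and 14 and 20 in the wild type. ND-19, a subunit of respiratory complex I, had both kinds of pairs in number at acceptors 8 bases apart and a lower fraction, 0.62 and 0.65 in the mutants and 0.71 and 0.68 in the wild type (log2 difference −0.38, SE 0.234, adjusted p = 0.478 by limma). CG1440, with a coding extension of 189 bases, had 0.19 and 0.18 in the mutants and 0.08 and 0.10 in the wild type, with a log2 ratio higher by 0.96 (unadjusted p = 0.0303 by limma).

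Events of abundant transcripts whose groups overlapped included RpL30, a ribosomal protein with acceptors 4 bases apart, at 1.00 and 1.00 in the mutants and 0.99 and 1.00 in the wild type over 3614 to 4893 long-form pairs a library, and Fer2LCH, the ferritin light chain, at 0.00 in all 4 libraries. At these depths a minor acceptor was counted at 12 to 21 pairs for RpL30 and at 16 to 43 for Fer2LCH. By chromosome, events with more long form in the mutants outnumbered those with less on each arm except chromosome 4, where 2 were higher and 2 lower among 24 events. Over all 29166 events of the 5 types, most of them retained introns, 25.9% were higher and 13.5% lower. Such an excess was thus also seen outside these events, though not in skipped exons (21% higher and 22.5% lower).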
